A study of Neurospora crassa with 24 samples.

Results

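*Neurospora crassa* reads light through several families of photoreceptors, and 4 genes outside its white collar system were described here. They were the opsin gene *nop-1* (NCU10055), the cryptochrome gene *cry* (NCU00582) and the phytochrome genes *phy-1* (NCU04834) and *phy-2* (NCU05790). They were taken by gene identifier from both deposited tables, and all 4 were present among the 9730 genes. Poly(A) RNA had been sequenced from 24 libraries of liquid cultures, 12 of the wild type (WT, strain FGSC #2489) and 12 of an *msn-1* knockout (ΔMSN1, strain FGSC #11345, a single deletion strain lacking NCU02671). Both strains were grown in Vogel's medium with glucose, arginine and biotin, first in light for germination and then for 2 days under 11 h light and 11 h dark cycles. They were then released into constant darkness, and 1 culture per strain was collected every 2 h from 0 to 22 h after lights off. No strain and time was repeated, so the p-values rest on the spread over times.

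The 4 proteins capture light with different chemistry. Opsins hold retinal, which is made from carotenoids. Cryptochromes hold a flavin, are related to DNA photolyases and absorb blue and near-ultraviolet light. Phytochromes hold a bilin, switch between red and far-red absorbing forms, and in fungi carry a histidine kinase. In this fungus most transcription that follows light is driven by the white collar complex, a pair of transcription factors of which WC-1 is itself a blue-light receptor of the LOV (light, oxygen or voltage) type, while the small LOV protein VVD tones that response down. The complex also drives *frq*, the central clock gene.

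The WT libraries summed to 2732470 to 8094126 and the ΔMSN1 libraries to 2415479 to 9829687. Levels are given in CPM, the deposited value scaled to a common library total. The knocked-out gene was at 25.7 to 50.8 CPM in WT and at 0 to 0.0413 CPM in ΔMSN1, as labelled. Only the ΔMSN1 labels give a lane of the sequencer, so strain and lane cannot be told apart. The 3 genes taken for growing hyphae (*act*, *Bml* and *tef-1*) were present in every library, with summed levels of 4353 to 6903 CPM in WT and 2545 to 6832 CPM in ΔMSN1. They are housekeeping genes and cannot tell hyphae from other cell types, so the form of growth was not checked. Genes of conidiation, the formation of asexual spores, were present too. The 6 markers *fl*, *con-6*, *con-8*, *con-10*, *con-13* and *eas* summed to 1005 to 6078 CPM in WT and 823 to 5302 CPM in ΔMSN1, and *con-13* was at 0 in 11 of 12 libraries of each strain.

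The 4 photoreceptor genes differed widely in level. The scaling of the deposited values was looked at in 589 weak genes, with a mean value under 1 and values above 0 in at least 3 libraries. The smallest value above 0 of each gene fell with gene length (slope of -1.29 on log2 scales, Pearson r of -0.84). CPM was therefore read as a level per length, although the sources used here do not state the exact scaling. Over the 22 dark libraries (2 to 22 h) *nop-1* was highest, with a median of 20.3 CPM and a range of 13.9 to 66.7. The next pair, *cry* (median 1.47, range 0.267 to 2.64) and *phy-1* (median 1.41, range 0.656 to 3.19), overlapped almost completely. The lowest gene, *phy-2*, had a median of 0.385 CPM and a range of 0.125 to 0.731, which overlapped the lower end of both. Dividing again by gene length kept this order, with medians of 9.79, 0.352, 0.217 and 0.101 CPM per kb. At 0 h, the moment of lights off, the order changed, because *cry* stood above the other 3 in both strains.

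**Figure D1:**
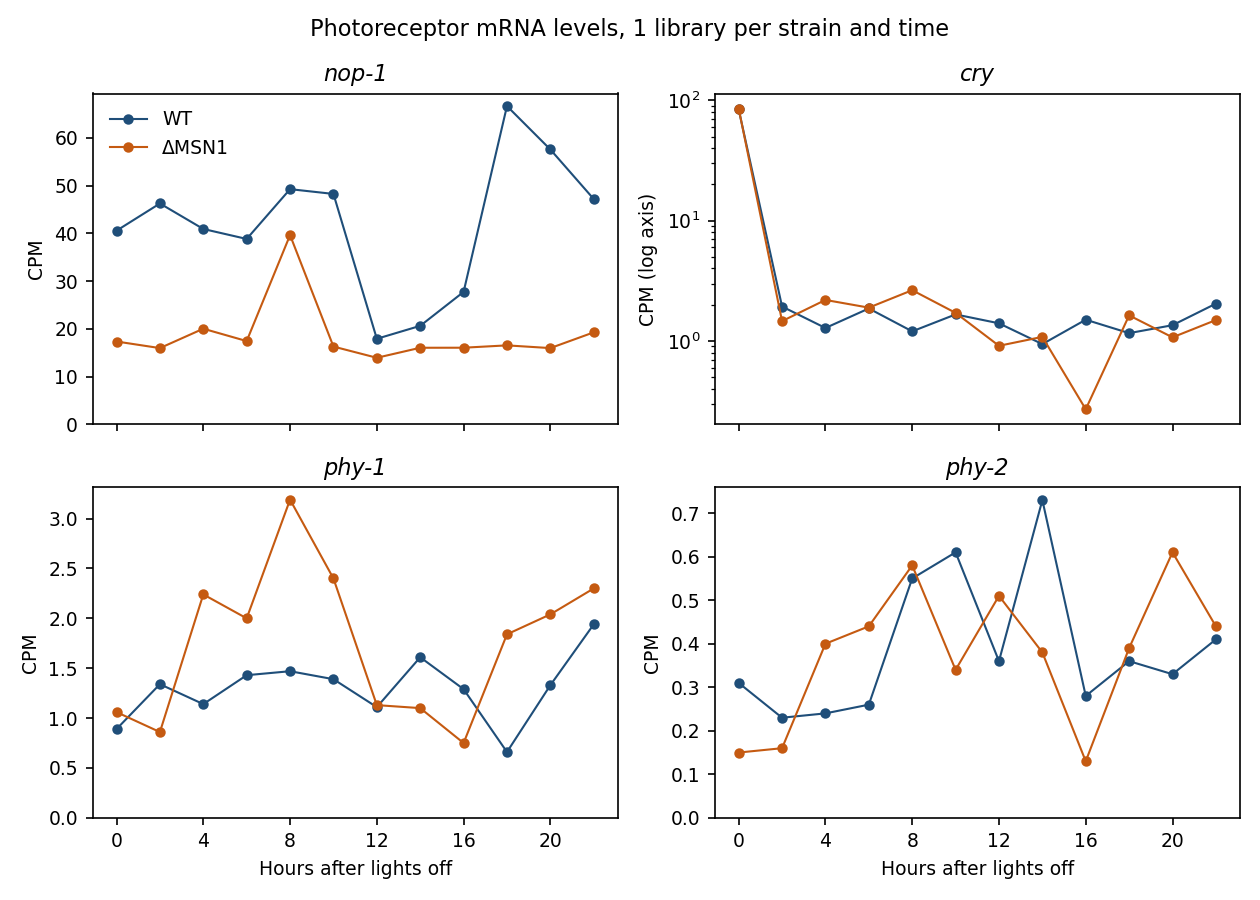
Level in CPM of *nop-1*, *cry*, *phy-1* and *phy-2* against hours after lights off, with 1 point per library, WT in blue and ΔMSN1 in orange; the *cry* axis is logarithmic and the other 3 start at 0. The *cry* points fall from 84.1 and 85.6 CPM at 0 h to 2.64 CPM or less, and the *nop-1* points of ΔMSN1 lie below those of WT at every time.

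The cryptochrome gene *cry* was high at lights off and low in the dark in these cultures. The light phase was sampled only at its end, so the level of *cry* earlier in the light is not known. In WT it was at 84.1 CPM at 0 h and at 1.93 CPM at 2 h. The ΔMSN1 libraries had 85.6 CPM at 0 h and 1.46 CPM at 2 h. The first dark sample was thus 43.6-fold lower than the 0 h sample in WT and 58.5-fold lower in ΔMSN1.

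From 4 to 22 h the WT libraries stood at 1.28, 1.86, 1.20, 1.66, 1.40, 0.94, 1.50, 1.16, 1.35 and 2.04 CPM. Those of ΔMSN1 stood at 2.19, 1.89, 2.64, 1.71, 0.91, 1.08, 0.27, 1.63, 1.07 and 1.49 CPM at the same times. No dark library came near either 0 h library, and *cry* had not risen again by 22 h, one full 22 h cycle after lights off, when it was 41.3-fold below 0 h in WT and 57.6-fold below in ΔMSN1. The dark values were small, with deposited estimated counts as low as 0.644, so the ripples among them were not read.

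With both strains in one model, *cry* was 56.6-fold higher at 0 h than in the dark (log2 fold change 5.82 ± 0.12 SE, edgeR quasi-likelihood test, adjusted p = 1.86e-22, 2 libraries against 22). It was 1 of the 2 members with a mean of at least 2 CPM, the level needed to enter this test, and it reached that level only through its 0 h libraries. The fit without a filter gave 5.83 ± 0.12 SE (edgeR adjusted p = 1.58e-22 over 9097 genes). Of 7310 genes tested, 0.520% were called in either direction and 0.506% as higher at 0 h. In the order of the difference in mean log2(CPM + 1) between 0 h and the dark, *cry* came first of all 9730 genes with 5.14, ahead of *vvd* with 4.21 and *bli-4* with 3.79. The result was as large against 2 to 6 h alone (log2 fold change 5.67, edgeR adjusted p = 5.65e-09) and against 22 h alone (5.73, edgeR adjusted p = 0.00334). Only 1 library per strain stood for 0 h.

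The other 3 members showed no such step. The opsin gene *nop-1* was at 40.5 CPM at 0 h and 46.2 CPM at 2 h in WT, and at 17.3 and 16.0 CPM in ΔMSN1. Its log2 fold change between 0 h and the dark was 0.00 ± 0.31 SE (edgeR adjusted p = 1.00), with a 95% interval of -0.60 to 0.61. Neither phytochrome gene had a mean of 2 CPM, and a fit without that filter tested 9097 genes and called 0.396% of them. There *phy-1* had a log2 fold change of -0.56 ± 0.33 SE (95% interval -1.20 to 0.08, edgeR adjusted p = 0.998) and *phy-2* one of -0.49 ± 0.48 SE (95% interval -1.43 to 0.45, edgeR adjusted p = 0.998). A moderate change at lights off in either phytochrome gene was therefore not detectable with 2 libraries of 0 h. The SE of *nop-1*, a gene of higher level, was close to that of *phy-1*.

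**Figure D2:**
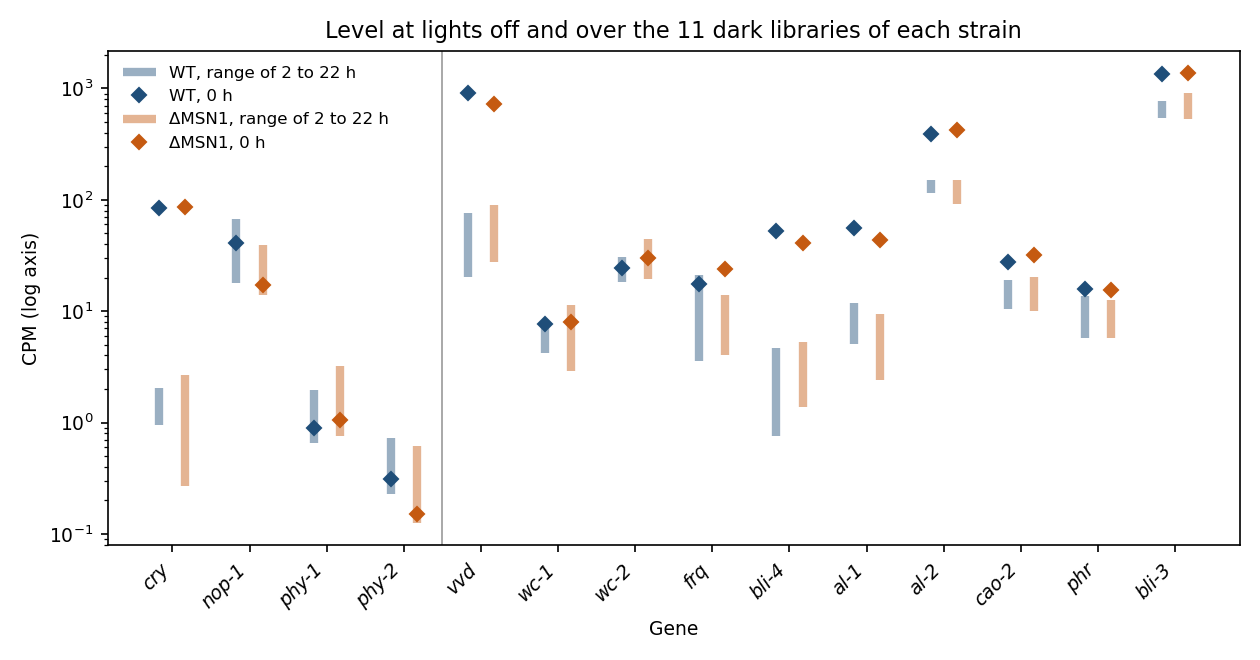
Level in CPM on a log axis at 0 h (diamonds) and the range over the 11 libraries of 2 to 22 h (bars) for the 4 photoreceptor genes, left of the line, and 10 genes of the light response, with WT in blue and ΔMSN1 in orange. The 10 genes are *wc-1*, *wc-2*, *frq* and the listed light-response genes called as higher at 0 h. The listed genes *al-3*, *ylo-1*, *sub-1*, *csp-1* and *ccg-1* were not called and are not drawn. The 0 h levels of *cry* (84.1 and 85.6 CPM), *vvd*, *bli-4*, *al-1* and *al-2* stand clear of their dark ranges in both strains, while those of *nop-1*, *phy-1* and *phy-2* lie within theirs.

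Some, not all, of the known genes of the light response were higher at 0 h together with *cry*. Of the LOV group, *vvd* had 0 h levels of 902 CPM (WT) and 722 CPM (ΔMSN1), against dark ranges of 20.4 to 75.4 and 27.5 to 89.1 CPM. It was 1 of 3 genes of that group called (log2 fold change 4.21 ± 0.29 SE, edgeR adjusted p = 9.53e-11). The receptor gene *wc-1* had 0.43 ± 0.23 SE and its partner *wc-2* 0.03 ± 0.18 SE, and neither was called. The group's median log2 fold change was 0.43, against -0.03 over all genes tested.

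Carotenoid genes followed in part. Of 5 genes, 3 were called as higher at 0 h. They were *al-1*, the phytoene desaturase gene (log2 fold change 3.12 ± 0.21 SE), *al-2*, the phytoene synthase gene (1.80 ± 0.15 SE), and *cao-2*, the gene of a carotenoid-cleaving oxygenase (0.99 ± 0.14 SE). In contrast, *al-3* had 0.15 ± 0.16 SE and *ylo-1* 0.13 ± 0.12 SE and were not called. The median of the 5 was 0.99.

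Among 7 other genes known to respond to light, 3 were called as higher at 0 h. These were *bli-4* (log2 fold change 4.22 ± 0.23 SE), *bli-3* (1.08 ± 0.20 SE) and the photolyase gene *phr* (0.88 ± 0.15 SE), whose protein is a relative of cryptochrome that repairs DNA. The clock gene *frq* was at 17.7 CPM at 0 h and 3.57 CPM at 2 h in WT, and at 23.9 and 4.05 CPM in ΔMSN1. It climbed again in the dark to at most 21.3 and 14.1 CPM, and its 0 h step was not called (1.33 ± 0.44 SE, edgeR adjusted p = 0.564). In that respect it differed in shape from *cry*, which stayed low. The remaining genes, *sub-1*, *csp-1* and *ccg-1*, were not called and stood below their dark medians at 0 h. Their 0 h levels were 0.65, 0.74 and 0.62 times the dark median in WT. In ΔMSN1 they were 0.64, 0.67 and 0.52 times the dark median. The median log2 fold change of the 7 genes was 0.88.

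Among 4 genes of the phosphorelay through which fungal histidine kinases can signal (*os-1*, *hpt-1*, *rrg-1*, *rrg-2*), 0 were called at lights off, by strain or by rhythm in edgeR, limma-voom or DESeq2, and 0 had an unadjusted p under 0.05 in these tests. Of these, *hpt-1* came nearest to a step at lights off, with 0.35 ± 0.18 SE and an unadjusted p of 0.0647 in edgeR. The same held for the velvet gene *ve-1*, whose product is involved in light and developmental responses of fungi, and for NCU00646, with log2 fold changes of -0.01 ± 0.14 and 0.26 ± 0.26 SE at lights off. Of the conidiation markers 1 of 5 tested was called as higher at 0 h, *con-8* (1.70 ± 0.34 SE, edgeR adjusted p = 0.00807).

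By likeness of pattern over the 24 libraries (Pearson r of log2(CPM + 1) with strain means removed), the genes most like *cry* were *bli-4* (r = 0.948), *al-2* (r = 0.948) and *al-1* (r = 0.939). These values rest on the 2 libraries of 0 h. Over the 22 dark libraries, a comparison chosen after seeing the data, they were 0.592, 0.347 and 0.669, and NCU07568, NCU00083 and NCU17030 became the most alike (r = 0.888, 0.881 and 0.865). For these last genes r was 0.785, 0.648 and 0.579 within WT alone, and 0.912, 0.932 and 0.921 within ΔMSN1 alone. All these points share their libraries and their depth.

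The chromosomal surroundings of *cry* were read as well, because in the reference annotation its gene model overlaps that of NCU00583 and the library kit did not mark strand. NCU00583 was above 0 only at 0 h, with 1.00 CPM in WT and 0.80 CPM in ΔMSN1, and reads of the overlapping stretch cannot be assigned to one gene or the other. The gene on the other side, NCU00581, did not step at lights off (log2 fold change 0.23 ± 0.15 SE). NCU00584, which lies between NCU00583 and *al-2* and was chosen after its values were seen, was at 58.0 CPM at 0 h and 21.3 to 30.6 CPM in the dark in WT, and at 77.3 and 25.2 to 43.0 CPM in ΔMSN1.

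The opsin gene *nop-1* was the member with a strain difference. In WT its levels from 0 to 22 h were 40.5, 46.2, 40.9, 38.8, 49.2, 48.2, 17.9, 20.6, 27.7, 66.7, 57.6 and 47.2 CPM. In ΔMSN1 they were 17.3, 16.0, 20.0, 17.4, 39.6, 16.3, 13.9, 16.0, 16.0, 16.5, 16.0 and 19.3 CPM. The knockout was thus nearly flat apart from its 8 h library, while WT fell at 12 h and came back at 18 h.

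The mean was 41.8 ± 14.3 CPM in WT and 18.7 ± 6.78 CPM in ΔMSN1 (SD, n = 12 times). In the model with time as a factor *nop-1* was 2.50-fold lower in ΔMSN1 (log2 fold change -1.32 ± 0.15 SE, edgeR adjusted p = 1.77e-05). Of 7310 genes tested, 21.8% were called by strain and 9.93% as lower in ΔMSN1, so a strain call by itself was common. The difference had 1 sign at 12 of 12 times, which 54 of the 7310 genes (0.739%) showed in this direction.

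Its size varied with time. The log2 ratio of ΔMSN1 to WT was -0.31 at 8 h, -0.36 at 12 h and -0.36 at 14 h, where the strains came closest. It was -2.01 at 18 h and -1.85 at 20 h, where they were farthest apart, and its median over the 12 times was -1.19. With each time left out in turn the log2 fold change stayed between -1.40 and -1.23, and edgeR's adjusted p between 1.50e-05 and 7.55e-05.

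**Figure D3:**
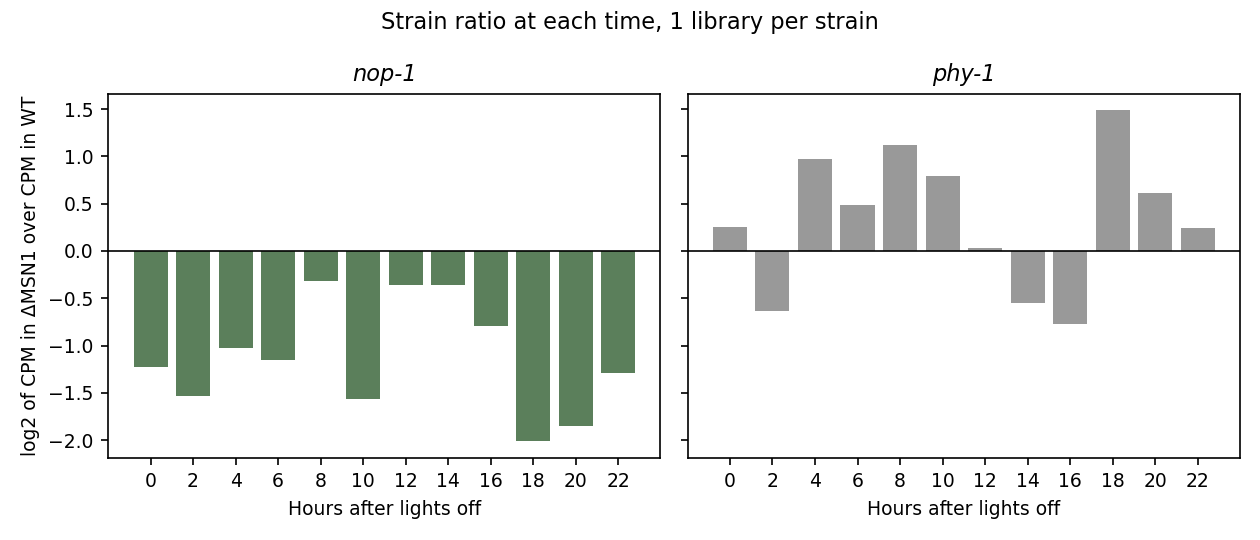
Log2 ratio of CPM in ΔMSN1 to CPM in WT at each time after lights off for *nop-1* (left) and *phy-1* (right), with 1 library per strain behind each bar. All 12 bars of *nop-1* are below 0, from -2.01 at 18 h to -0.31 at 8 h, whereas those of *phy-1* lie on both sides.

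Conidiation, a process in which *nop-1* transcript is known to be abundant, was compared with these times. In WT the 12 to 16 h libraries had *nop-1* at 17.9 to 27.7 CPM, below the 38.8 to 49.2 CPM of 0 to 10 h and the 47.2 to 66.7 CPM of 18 to 22 h. The 6 conidiation markers together were at 3815 to 6078 CPM from 0 to 10 h, 1887 to 2942 CPM from 12 to 16 h and 1005 to 2001 CPM from 18 to 22 h. The 5 markers other than *eas* were at 762 to 2027, 310 to 675 and 626 to 676 CPM in the same windows. These windows were drawn after seeing the *nop-1* values. The sum of all 6 reached its lowest value from 18 to 22 h, where *nop-1* was highest. The sum without *eas* was lowest at 12 h (310 CPM), as was *nop-1*. By 16 h that sum was at 675 CPM, within its range of 18 to 22 h. These sums were mostly *eas* (mean 2393 CPM in WT) and *con-8* (712 CPM), and the single markers differed. In WT *con-8* was lowest at 12 h (196 CPM) and *fl* at 14 h (10.8 CPM). The low of *con-10* was at 6 h (49.9 CPM), and those of *con-6* and *eas* were at 22 h (1.30 and 379 CPM).

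In ΔMSN1 the 8 h library had the highest *nop-1*, at 39.6 CPM, and also the highest marker sum, at 5302 CPM, of which *eas* made up 4389 CPM. The 10 h library had a marker sum of 5202 CPM with *nop-1* at 16.3 CPM. By strain, 1 of the 5 markers tested was called, *eas*, the hydrophobin gene, as lower in ΔMSN1 (log2 fold change -0.88 ± 0.25 SE, edgeR adjusted p = 0.0187), and the median of the 5 was -0.42 against 0.01 over all genes tested. The part of conidiation in the *nop-1* difference was not tested. In bulk RNA, fewer cells of a type and less RNA per cell cannot be told apart.

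The rhythm of *nop-1* in WT was tested with waves of 22 h, 11 h and near 7 h (harmonics of the cycle) fitted together. The 11 h wave was the largest, with a peak-to-trough change of 2.03-fold and a peak at 8.12 h, followed by the 22 h wave with 1.73-fold and a peak at 1.65 h. Unadjusted edgeR p-values were 5.99e-04 for 11 h, 0.00338 for 22 h and 0.0218 for the 7 h wave. The joint test gave p = 0.00137 and an adjusted p of 0.148 in edgeR, above the threshold of 0.1, which 0.318% of 7239 genes passed. DESeq2 did call it (adjusted p = 0.00381), in a fit that called 308 genes (4.25%) against edgeR's 23. Without the 0 h library edgeR's adjusted p was 0.0542, in a fit that called 454 of 7245 genes (6.27%).

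In ΔMSN1 the waves of *nop-1* did not pass (edgeR adjusted p = 0.672), in a test that 3 of 7321 genes (0.0410%) passed, and its largest was the 7 h wave with 1.48-fold. The difference in waves between the strains had an unadjusted p of 0.0145 and an adjusted p of 0.918 in edgeR, where 0.0137% of 7310 genes were called. A loss of rhythm in the knockout was therefore not shown. Through the dark *nop-1* had no slope that could be told from 0 (-0.00638 ± 0.0143 log2 units per h, edgeR adjusted p = 0.876, with 0.643% of 7309 genes called).

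The genes most like *nop-1* over the 24 libraries were NCU09755 (r = 0.838), NCU02700 (r = 0.824) and NCU00137 (r = 0.822). Within WT alone the 3 values were 0.888, 0.843 and 0.910, and within ΔMSN1 alone 0.714, 0.825 and 0.741. The likeness was in the course over time, since the strain means had been removed, and the strain differences went separate ways. NCU09755 was lower in ΔMSN1 (log2 fold change -0.38 ± 0.10 SE, edgeR adjusted p = 0.00978), NCU02700 was higher (0.81 ± 0.22 SE, edgeR adjusted p = 0.0165), and NCU00137 was not called (-0.03 ± 0.07 SE). The neighbours of *nop-1* were silent or nearly so, NCU09726 at 0 in all libraries and NCU10056 at 0 in WT and at most 1.28 CPM in ΔMSN1.

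The other photoreceptor genes were not called by strain. The log2 fold change of *cry* was -0.08 ± 0.14 SE (95% interval -0.35 to 0.20, edgeR adjusted p = 0.746). That fit held the 0 h libraries, whose deposited values for *cry* (655 in WT, 295 in ΔMSN1) far exceeded the dark ones (25.6 or less). The interval therefore does not describe the dark libraries alone. Without 0 h and without a filter the log2 fold change was -0.07 (edgeR unadjusted p = 0.865). Without the time factor it was -0.44, outside that interval, and was not called. In the fit without a filter, which called 17.6% of 9097 genes, *phy-1* had 0.29 ± 0.17 SE (95% interval -0.05 to 0.64, edgeR adjusted p = 0.275) and *phy-2* -0.23 ± 0.32 SE (95% interval -0.85 to 0.39, edgeR adjusted p = 0.721). Within the LOV group *wc-2* was called as higher in ΔMSN1 (0.28 ± 0.07 SE, edgeR adjusted p = 0.0116, higher at 11 of 12 times), and *wc-1* (0.09 ± 0.10 SE) and *vvd* (0.08 ± 0.08 SE) were not. The group's median was 0.09.

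Of the 5 carotenoid genes, 3 were called as lower in ΔMSN1. Over all 7310 genes tested, 9.93% were. A link of these genes to *nop-1* was not tested. The 3 called were *al-1* (-0.95 ± 0.17 SE, edgeR adjusted p = 0.00113), *al-2* (-0.27 ± 0.08 SE, edgeR adjusted p = 0.0191) and *ylo-1* (-0.23 ± 0.07 SE, edgeR adjusted p = 0.0269), with a median of -0.23 over the 5. Of the 7 other light-response genes, *ccg-1* (-0.53 ± 0.08 SE) and *phr* (-0.27 ± 0.08 SE, edgeR adjusted p = 0.0303) were lower, and *frq* was not called (-0.19 ± 0.11 SE). The median of the 7 was -0.11. Of the 3 hyphal genes, *act* (-0.28 ± 0.07 SE) and *tef-1* (-0.35 ± 0.11 SE) were also called as lower, with changes no smaller than those of *al-2* and *ylo-1*. By rhythm in WT, edgeR called 1 of the 7 other light-response genes, *ccg-1*, and 0.318% of all 7239 genes tested. For these 7 genes limma-voom called 0 in WT, and DESeq2 called *frq* and *ccg-1*. In ΔMSN1 edgeR called 0 of the 7 by rhythm, and DESeq2 called *ccg-1*.

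The rhythm test has a limit for *cry*. The 3 waves give 0 h and 22 h the same phase, so a gene high at 0 h and low at 22 h cannot be followed by them. The joint test did not pass in WT (edgeR adjusted p = 0.284) or in ΔMSN1 (edgeR adjusted p = 0.506). Without the 22 h library, which leaves the 0 h level free to be fitted, the values were 0.0468 and 0.0833 and passed the threshold of 0.1 in edgeR, in fits that called 1.51% of 7203 genes and 1.12% of 7302 genes. Without 0 h, where *cry* could be fitted only with no filter, the WT value was 1.00. In the dark *cry* had a slope of -0.0262 ± 0.0135 log2 units per h (fit without a filter, edgeR adjusted p = 0.547, with 0.408% of 9078 genes called).

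The phytochrome gene *phy-1* was weak in both strains. In WT its levels from 0 to 22 h were 0.89, 1.34, 1.14, 1.43, 1.47, 1.39, 1.11, 1.61, 1.29, 0.66, 1.33 and 1.94 CPM. In ΔMSN1 they were 1.06, 0.86, 2.24, 2.00, 3.19, 2.40, 1.13, 1.10, 0.75, 1.84, 2.04 and 2.30 CPM. The knockout was above WT at 9 of 12 times and had a rise from 4 to 10 h (2.00 to 3.19 CPM), a fall from 12 to 16 h (0.755 to 1.13 CPM) and a rise from 18 to 22 h (1.84 to 2.30 CPM), windows drawn after seeing the values.

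The 11 h wave of *phy-1* in ΔMSN1 had a peak-to-trough change of 1.87-fold with a peak at 8.47 h, but neither this wave (unadjusted p = 0.125) nor the joint test (adjusted p = 0.758) passed in edgeR without a filter, where 0.0335% of 8951 genes were called. In WT the joint test gave an edgeR adjusted p of 1.00, with 0.247% of 8909 genes called. The difference between the strains' waves had an unadjusted p of 0.748 in edgeR, where 0.0110% of 9097 genes were called.

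Long genes as a class moved along with it, and so, to a smaller extent in ΔMSN1, did all tested genes. The *phy-1* gene spans 6477 bases in the reference annotation. The 422 tested genes of at least 5000 bases had a median deviation from their own means that lay between -0.67 (16 h) and 0.51 (8 h) in ΔMSN1, on the log2(CPM + 1) scale, and between -0.15 and 0.39 in WT. Across the 12 ΔMSN1 libraries that median and *phy-1* had a Pearson r of 0.95, and across the 12 WT libraries one of 0.54. The median deviation of all tested genes in ΔMSN1 was also lowest at 16 h (-0.33) and highest at 8 h (0.25). In WT it lay between -0.16 (12 h) and 0.22 (22 h). When each library was first cleared of its own dependence of expression on gene length (a fit chosen once the data had been seen), the 11 h wave of *phy-1* in ΔMSN1 was 1.32-fold (unadjusted p = 0.667, edgeR).

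**Figure D4:**
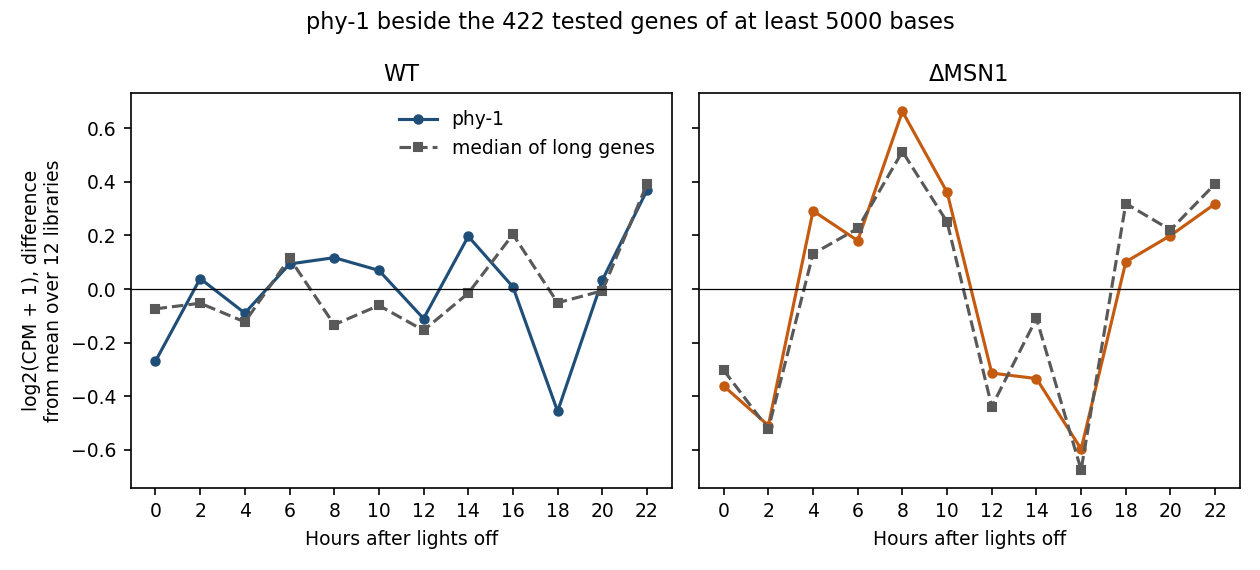
Difference of log2(CPM + 1) from its mean over the 12 libraries of a strain, against hours after lights off, for *phy-1* (solid line, circles) and for the median of the 422 tested genes of at least 5000 bases (dashed line, squares), in WT (left) and ΔMSN1 (right). In ΔMSN1 both lines are highest at 8 h and lowest at 16 h, and in WT the median of long genes stays between -0.15 and 0.39.

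The same comparison for the other members, again without a test, gave an r in ΔMSN1 of 0.71 for *phy-2* and 0.55 for *nop-1* with the long genes' median, and of 0.75 for *cry* over the 11 dark libraries. All of these share the libraries' depth. In WT the corresponding values were -0.10, 0.06 and 0.55. The strain difference of *nop-1*, a gene of 2076 bases, was as large with the length trend removed (log2 fold change -1.33, edgeR adjusted p = 1.66e-05).

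The second phytochrome gene, *phy-2*, had the lowest level of the photoreceptor genes in every library, though always above 0. In WT its 12 levels were 0.31, 0.23, 0.24, 0.26, 0.55, 0.61, 0.36, 0.73, 0.28, 0.36, 0.33 and 0.41 CPM from 0 to 22 h. In ΔMSN1 they were 0.15, 0.16, 0.40, 0.44, 0.58, 0.34, 0.51, 0.38, 0.13, 0.39, 0.61 and 0.44 CPM. The means of 0.388 and 0.378 CPM were within the SDs of 0.160 and 0.161, and the ranges of the strains overlapped almost entirely.

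The deposited counts behind *phy-2* were 0.302 to 5.58 per library, and those behind *phy-1* 1.79 to 30.9. Because these values had been scaled, they are not numbers of reads and no counting interval was drawn from them. The joint rhythm test of *phy-2* gave adjusted p-values of 0.992 in WT and 0.994 in ΔMSN1 in edgeR without a filter. Its slope in the dark was 0.00334 ± 0.0214 log2 units per h and that of *phy-1* -0.00244 ± 0.0143 (edgeR adjusted p = 0.981 and 0.967).

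The neighbours of the phytochrome genes did not share their levels. Beside *phy-1*, NCU04832 was at 24.2 to 36.8 CPM in WT and 16.7 to 26.1 CPM in ΔMSN1, and it was called as lower in the knockout (-0.51 ± 0.08 SE, edgeR adjusted p = 4.41e-04), while *phy-1* was not. Beside *phy-2*, NCU17274 was at 0 to 1.51 CPM. The genes on the far sides, NCU15367 and NCU15290, were not analysed here.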

How the data were processed

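The authors quantified poly(A) libraries with kallisto 0.43.1, per the labels, and deposited estimated counts per gene in 1 table per strain. The genome build and the scaling are not given in the sources used here. All values above 0 were non-whole, so the estimated counts were rounded for the tests, and 0 columns were left unmapped. Gene names, lengths and neighbours came from the RefSeq table of the NC12 assembly, which matched 9729 of 9730 genes. It holds no product names, so lists of histidine kinases and opsin-related genes by product were not made.

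Tests were edgeR 4.0.16 quasi-likelihood fits (R 4.3.3) over genes whose mean reached 2 CPM, with TMM scaling and Benjamini-Hochberg adjustment over all genes tested, at 0.05 (0.1 for rhythms). The strain test had time as a factor and the tests at lights off and over the dark had strain. The fits were tested on simulated data. Alternatives were DESeq2 1.42.0 and its size factors, limma-voom (limma 3.58.1), a minimum of 5 CPM or none, values times gene length, no time factor, and each time left out. The length trend removal, the other alternatives combined with no filter and the likeness over dark libraries were chosen after seeing the data. Named genes were the 4 photoreceptor genes, the 3 genes most like each one of at least 2 CPM, their neighbours, *wc-1*, *wc-2*, *vvd* and *frq*, and the listed genes that passed, at most 4 per list and comparison. Of the listed genes that did not pass, only some are given as values. The members and lists were chosen with earlier results of these data known.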

Additional observations from a re-analysis of the deposited data

How the results depend on the processing

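The lower *nop-1* in ΔMSN1 and the higher *cry* at 0 h kept their direction and their call under every alternative fitted, with a log2 fold change of -1.33 for *nop-1* without the time factor that pairs the strains (no replicate block). The waves of *nop-1* in WT passed with DESeq2 (adjusted p = 0.00381) and ranged from 0.0542 to 0.299 in edgeR with each time left out, passing only without 0 h. With each time left out those of *cry* ranged from 0.0468 to 1.00 (WT) and from 0.0833 to 0.891 (ΔMSN1), passing only without 22 h.

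Values that were never called changed sign around 0. At lights off *nop-1* had a log2 fold change of -0.0108 with a minimum of 5 CPM and -0.0282 with the length trend removed, and between -0.0430 and 0.0802 with a time left out. The slopes per h were 0.00538 for *nop-1* in WT alone, 7.75e-04 (limma-voom) and 4.00e-04 (WT alone) for *phy-1* and -1.13e-04 (length trend removed) for *phy-2*. With a time left out they ran from -0.0118 to 0.0013 for *nop-1*, -0.0125 to 0.00405 for *phy-1* and -0.00788 to 0.0108 for *phy-2*.

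Counts of rhythmic genes depended on the tool. In WT edgeR called 23, limma-voom 6, DESeq2 308, values times gene length 58 and the fit with the length trend removed 15, with 0 to 454 when a time was left out. In ΔMSN1 the counts were 3 in edgeR and 192 in DESeq2, with 0 to 82 when a time was left out. Strain by rhythm gave 1 in edgeR, 0 in limma-voom (333 at an unadjusted p under 0.05), 36 in DESeq2 and 4 with values times gene length, with 0 to 13. Slopes in the dark gave 47 in edgeR and 79 in DESeq2, 0 in WT alone (1021 at an unadjusted p under 0.05) and 0 in ΔMSN1 alone (373 likewise), with 2 to 80. The cause of these differences was not tested. Detection was limited for *phy-1* and *phy-2*, which lay under the CPM minimum, and by the single library per strain and time.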
